A study of Mus musculus with 9 samples.

Results

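The genes of glycolysis, of the pentose phosphate pathway and of the response to low oxygen were followed in mouse bone marrow-derived macrophages. The set was given as a list of 36 gene symbols of these pathways, and all 36 were among the 12204 genes of the expression table. It held 19 genes of glucose uptake, glycolysis and lactate export, 7 genes of the pentose phosphate pathway and 10 genes of the hypoxia-inducible factor (HIF) pathway. Cells from C57/Bl6J bone marrow were grown into macrophages over 6 days in medium with 20% L929 supernatant, which supplies the growth factor M-CSF. The 3 groups, with 3 libraries each, were macrophages given 50 µM BMS303141 for 1 h and then 10 ng/ml lipopolysaccharide (LPS) for 4 h, macrophages given 10 ng/ml LPS for 4 h, and untreated macrophages. BMS303141 is an inhibitor of ATP-citrate lyase, the enzyme that makes cytosolic acetyl-CoA from citrate, and LPS is a bacterial cell wall component sensed by Toll-like receptor 4. No group analysed here received BMS303141 by itself, and a vehicle is not named in the labels. Whether the 3 libraries of a group came from separate mice or cultures is not stated either, so the p-values rest on a spread between libraries that may be technical.

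Glycolysis splits glucose into pyruvate in the cytosol, and lactate dehydrogenase turns pyruvate into lactate so that the pathway can continue without mitochondrial respiration. The pentose phosphate pathway branches off at glucose 6-phosphate: its oxidative arm makes NADPH and its non-oxidative arm rearranges sugars back into glycolytic intermediates. HIF-1, whose alpha subunit is encoded by Hif1a, binds hypoxia response elements near many glycolytic genes. Prolyl hydroxylases mark this subunit for destruction when oxygen is present. Macrophages activated through Toll-like receptor 4 are known for a shift toward glycolysis and lactate release.

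Values are on the log2 scale of CPM (read counts scaled to a common library total) for reads from transcript 3′ ends, so a level carries no term for transcript length. The steps between low values corresponded to about 3.50 to 3.75 M reads per library with BMS303141 and LPS, 1.83 to 3.20 M with LPS alone and 3.23 to 5.11 M without treatment. LPS replicate 1 was the shallowest library and stood apart from all others on the second principal component (-63.1, against 1.31 and -5.48 for LPS replicates 2 and 3). Within the LPS group its values for the 36 genes differed from the mean of the other two by -1.28 to 1.04, and by over 1 for Gapdh, Egln1 and Ak4. All 10 macrophage markers were listed, and their summed level was 5799.7 to 6035 CPM with BMS303141 and LPS, 6100.1 to 6217 CPM with LPS and 11882 to 12326 CPM in untreated cells. Of 8 neutrophil markers only S100a8 and S100a9 were listed, while Ly6g, Mpo, Elane, Camp, Ngp and Retnlg were not. Their sum was 172 to 264 CPM with BMS303141 and LPS, 33.9 to 60.9 CPM with LPS and 7.81 to 29.6 CPM in untreated cells, and its part in the results below was not tested. S100a8 carried this sum, since S100a9 lay between -1.17 and 3.37 log2 CPM in all libraries and did not pass in either step (adjusted p = 0.757 for LPS against untreated cells and 0.863 for the inhibitor over LPS, limma). Of the other marker lists, 1 of 5 mast cell markers (Hdc) was listed, at 60.5 to 77.2 CPM with BMS303141 and LPS, 106 to 118 CPM with LPS and 2.21 to 2.59 CPM in untreated cells, and 1 of 6 dendritic cell markers (Itgax), at 4.77 to 5.36, 13.5 to 22.5 and 3.04 to 4.19 CPM in the same order. Of 9 mitochondrially encoded genes 6 were listed, and their sum was 3675 to 4077 CPM with BMS303141 and LPS, 2756 to 3686 CPM with LPS and 3999.4 to 5041 CPM in untreated cells; 4 of the 6 fell with LPS. The listed stromal markers (3 of 5) summed to at most 15.3 CPM and the listed lymphocyte marker (1 of 7) to at most 7.53 CPM in any library, and 0 of 6 erythroid markers were listed. The part of these genes in the results was not tested. Fewer cells of a type and less RNA per cell cannot be told apart in these bulk samples.

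LPS moved the branches of this network in opposite directions. A gene was called at a Benjamini-Hochberg adjusted p under 0.05 in a limma fit over 12196 genes. Of the 36 genes 14 rose and 9 fell with LPS, against a background of 21.5% of all tested genes called higher and 25.4% called lower. A positive difference was found for 23 of 36 genes, beside 47.1% of tested genes. All LPS libraries lay above all untreated ones for 12 genes and below them for 9, beside 23.7% and 28.9% of tested genes. Among the 19 glycolytic genes 10 rose and 3 fell, whereas none of the 7 pentose phosphate genes was called higher in limma (1 at an unadjusted p under 0.05) and 5 were called lower. Without LPS replicate 1 the 36 genes held 18 called higher, with Rpia, Rpe, Ndrg1 and P4ha1 added, and 9 called lower, with Aldoa in place of Pgd. In that fit 2763 of 12184 tested genes were called higher and 3276 lower. In the HIF group 4 of 10 rose and 1 fell. The median log2 difference was 0.90 for the glycolytic genes, -0.73 for the pentose phosphate genes and 0.70 for the HIF group, beside -0.06 over all tested genes.

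**Figure D1:**
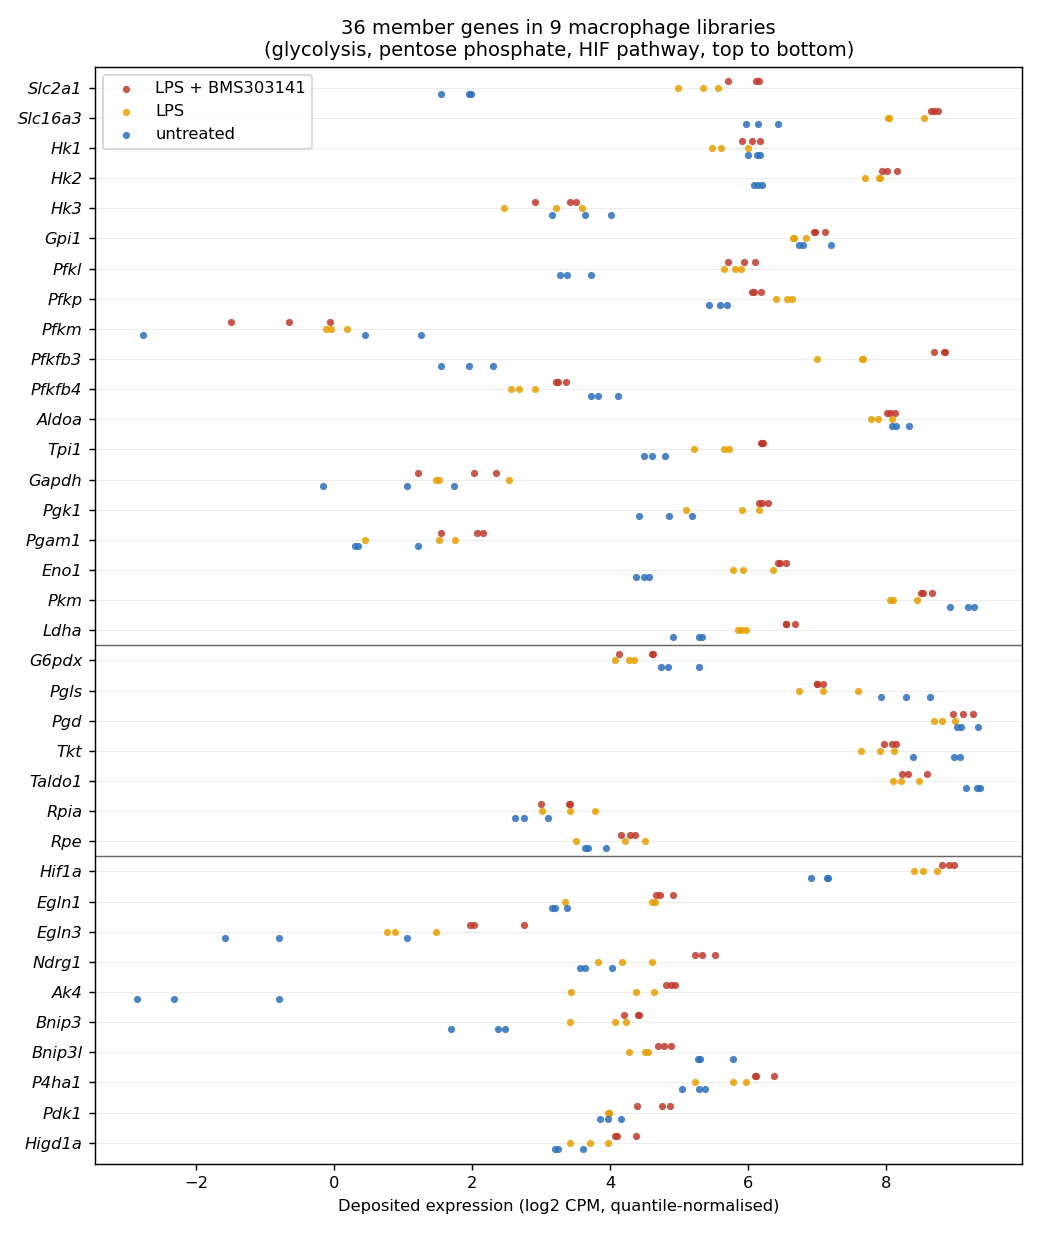
Deposited log2 CPM (x axis) of the 36 genes (y axis) in each of the 9 libraries, coloured by group, with glycolysis at the top, the pentose phosphate pathway in the middle and the HIF group at the bottom. Pfkfb3 lies between 8.69 and 8.85 with BMS303141 and LPS, between 6.99 and 7.66 with LPS and between 1.56 and 2.30 in untreated cells, while Taldo1 and Tkt are highest in the untreated libraries.

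The core of the hypoxia response element, ACGTG or GCGTG, was looked up in the 250 bases before the transcription start sites of RefSeq (GRCm38.p6), on both strands. Of the 36 genes 34 matched a RefSeq promoter; genes with several starts counted once, if any start had the motif. ACGTG stood before 17 of these 34 genes, before 26.1% of the 8171 listed genes with a promoter and before 18.5% of all 27025 genes with one. By branch it stood before 11 of 19 glycolytic genes, 0 of 7 pentose phosphate genes and 6 of 8 genes of the HIF group. GCGTG was found before 11 of 19 glycolytic, 6 of 7 pentose phosphate and 6 of 8 HIF group genes, beside 51.3% of the listed genes. The median GC content of these windows was 61.9%, 57.2% and 68.0% in the 3 branches and 60.0% over listed genes. A match is a description of letters and not of binding, and the absence of a motif holds for this window alone.

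Among genes called with LPS, ACGTG stood before 10 of the 14 that rose and before 1 of the 8 matched genes that fell. Of these 8, 5 were pentose phosphate genes, a branch without ACGTG, so the contrast largely repeats the one by branch. The set was chosen by pathway, with HIF targets in it, and the share among all genes called with LPS was not counted. The promoters shown hold both cases in both directions: raised genes with ACGTG (Slc2a1, Pfkfb3, Ldha, Bnip3) and without it (Pfkl, as also Pfkp, Tpi1 and Eno1), and lowered genes without it (Taldo1, Tkt) and with it (Pkm). Each gives the 250 bases that end at the base before the start, read 5′ to 3′ on the strand of the gene, with ACGTG and the motif GCGTG and their reverse complements in capitals; the palindrome CACGTG reads as ACGTG on both strands. They lie in GRCm38.p6 at chr4:119108495-119108744 (plus strand, Slc2a1), chr2:11553930-11554179 (minus, the upstream of 2 starts of Pfkfb3), chr7:46845554-46845803 (plus, the upstream of 2 starts of Ldha), chr7:138909507-138909756 (minus, Bnip3), chr10:78009808-78010057 (minus, Pfkl), chr9:59656977-59657226 (plus, the downstream of 2 starts of Pkm), chr7:141391910-141392159 (plus, Taldo1) and chr14:30548881-30549130 (plus, Tkt).
Slc2a1: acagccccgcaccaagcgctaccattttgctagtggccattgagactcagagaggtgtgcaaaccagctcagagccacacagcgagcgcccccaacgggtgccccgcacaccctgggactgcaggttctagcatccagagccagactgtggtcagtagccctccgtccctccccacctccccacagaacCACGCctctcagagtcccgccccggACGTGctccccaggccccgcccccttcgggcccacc
Pfkfb3: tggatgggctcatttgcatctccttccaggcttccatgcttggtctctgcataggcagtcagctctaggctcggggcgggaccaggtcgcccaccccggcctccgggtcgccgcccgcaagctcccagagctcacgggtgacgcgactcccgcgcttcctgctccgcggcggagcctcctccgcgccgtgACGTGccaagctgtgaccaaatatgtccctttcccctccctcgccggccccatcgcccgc
Ldha: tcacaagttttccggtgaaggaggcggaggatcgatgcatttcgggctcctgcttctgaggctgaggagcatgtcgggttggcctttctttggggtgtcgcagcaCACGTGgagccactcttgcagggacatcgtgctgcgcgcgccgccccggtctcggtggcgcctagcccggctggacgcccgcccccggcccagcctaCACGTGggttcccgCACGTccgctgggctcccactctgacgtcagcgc
Bnip3: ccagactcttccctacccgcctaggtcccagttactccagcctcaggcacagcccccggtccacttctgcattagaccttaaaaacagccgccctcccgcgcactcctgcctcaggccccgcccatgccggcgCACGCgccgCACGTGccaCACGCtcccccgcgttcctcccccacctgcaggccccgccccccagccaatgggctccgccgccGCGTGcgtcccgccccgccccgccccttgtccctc
Pfkl: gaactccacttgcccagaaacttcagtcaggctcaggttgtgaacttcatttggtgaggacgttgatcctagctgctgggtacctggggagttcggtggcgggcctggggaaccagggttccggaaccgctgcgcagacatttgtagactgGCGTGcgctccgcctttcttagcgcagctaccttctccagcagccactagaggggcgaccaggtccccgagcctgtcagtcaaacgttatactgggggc
Pkm: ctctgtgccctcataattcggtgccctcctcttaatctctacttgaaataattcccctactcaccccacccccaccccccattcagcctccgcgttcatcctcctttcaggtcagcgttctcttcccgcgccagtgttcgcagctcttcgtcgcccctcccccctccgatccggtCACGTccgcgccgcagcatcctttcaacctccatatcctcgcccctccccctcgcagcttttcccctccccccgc
Taldo1: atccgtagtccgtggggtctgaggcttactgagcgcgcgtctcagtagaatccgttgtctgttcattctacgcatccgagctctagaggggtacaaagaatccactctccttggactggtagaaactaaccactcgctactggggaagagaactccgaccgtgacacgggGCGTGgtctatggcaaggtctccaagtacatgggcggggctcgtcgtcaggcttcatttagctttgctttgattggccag
Tkt: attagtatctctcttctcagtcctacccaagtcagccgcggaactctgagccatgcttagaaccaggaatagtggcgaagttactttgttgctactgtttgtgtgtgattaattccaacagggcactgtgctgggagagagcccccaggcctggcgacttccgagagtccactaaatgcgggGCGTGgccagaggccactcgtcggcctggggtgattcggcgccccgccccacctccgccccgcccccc
The Ldha window held 3 separate stretches in capitals, a pair of them the palindrome, and the Bnip3 window held 4. In the Slc2a1 window ACGTG began 36 bases before the start, and in the Pfkfb3 window 60 bases before it. The windows of Pfkl, Taldo1 and Tkt each held 1 GCGTG and no ACGTG, and that of Pkm held 1 ACGTG. The downstream start of Ldha and the upstream start of Pkm, not shown, had no ACGTG.

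Both transporters at the ends of the pathway rose with LPS. Slc2a1, which encodes the glucose transporter GLUT1 (ENSMUSG00000028645, chromosome 4, 119108711 to 119137983 in GRCm38, plus strand), was at 4.99, 5.56 and 5.35 log2 CPM in LPS libraries and at 1.98, 1.95 and 1.56 in untreated libraries. Slc16a3, which encodes the lactate exporter MCT4, was at 8.55, 8.04 and 8.03 log2 CPM with LPS and at 5.96, 6.14 and 6.44 in untreated cells. In neither gene did the groups overlap. The rise of Slc2a1 was 11.1-fold (log2 difference 3.47, SE 0.20, adjusted p = 1.21e-08, limma) and that of Slc16a3 4.07-fold (2.02, SE 0.15, adjusted p = 1.44e-07, limma).

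At the first phosphorylation of glucose the hexokinase genes moved apart. Hk2, the inducible isoform, was at 7.69, 7.89 and 7.91 log2 CPM with LPS and at 6.14, 6.19 and 6.09 in untreated libraries, a 3.23-fold rise without overlap (log2 difference 1.69, SE 0.11, adjusted p = 2.58e-08, limma). Hk1, the constitutive isoform, was at 6.00, 5.60 and 5.48 log2 CPM with LPS and at 6.17, 6.00 and 6.13 in untreated libraries. It was called lower (-0.41, SE 0.15, adjusted p = 0.0381, limma), but LPS replicate 1 lay at the level of the lowest untreated library, and the call ended in 9 of the alternative fits (adjusted p up to 0.247, limma). Hk3, an isoform of myeloid cells, did not pass (-0.52, SE 0.31, adjusted p = 0.195, limma). Within each library Hk2 made up 73.1 to 82.8% of the summed hexokinase CPM with LPS and 45.5 to 47.7% in untreated cells.

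The step at phosphofructokinase held the steepest rise among the glycolytic genes. Phosphofructokinase commits sugar to glycolysis, and the enzymes of the Pfkfb family set the level of fructose 2,6-bisphosphate, its strongest activator. Pfkfb3, the isoform with the highest ratio of kinase to phosphatase activity (ENSMUSG00000026773, chromosome 2, 11471433 to 11554077, minus strand), was at 6.99, 7.64 and 7.66 log2 CPM with LPS and at 2.30, 1.95 and 1.56 in untreated libraries. This was a 45.1-fold rise (log2 difference 5.50, SE 0.20, adjusted p = 1.37e-10, limma). Its paralog Pfkfb4 fell, with 2.91, 2.56 and 2.68 log2 CPM under LPS and 4.12, 3.73 and 3.82 in untreated cells (-1.17, SE 0.21, adjusted p = 0.000455, limma). By level Pfkfb3 ranked 9 of the 36 genes in LPS libraries and 30 of 36 in untreated ones.

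Of the phosphofructokinase genes, Pfkl, the liver type, was at 5.90, 5.81 and 5.66 log2 CPM with LPS and at 3.27, 3.37 and 3.72 in untreated libraries, a 5.05-fold rise (log2 difference 2.34, SE 0.17, adjusted p = 7.71e-08, limma). Pfkp, the platelet type, rose 1.96-fold, with 6.64, 6.41 and 6.57 log2 CPM under LPS and 5.43, 5.69 and 5.59 in untreated cells (0.97, SE 0.12, adjusted p = 2.61e-05, limma). The share of Pfkl in the summed CPM of the family was 34.5 to 39.5% with LPS and 16.7 to 20.7% in untreated cells. The muscle type Pfkm lay between -2.77 and 1.25 log2 CPM in all libraries, at most 8 value steps above the lowest value, and its difference of 0.37 had a 95% interval of -1.66 to 2.39. Gpi1, the isomerase between glucose 6-phosphate and fructose 6-phosphate, differed by -0.19 (95% interval -0.48 to 0.10).

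**Figure D2:**
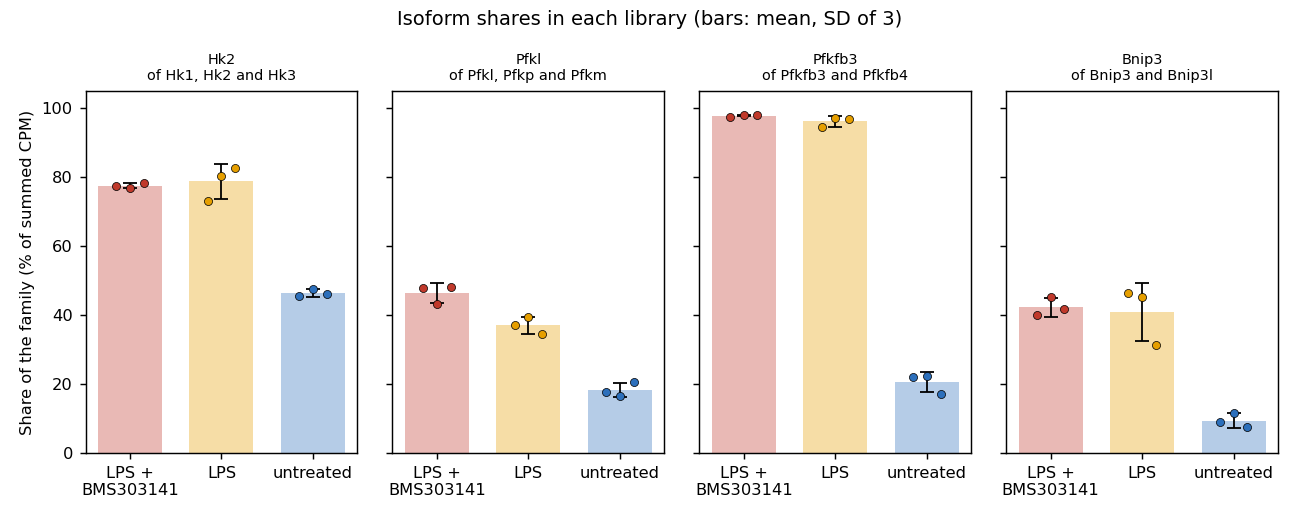
Share of 1 isoform in the summed CPM of its family (y axis, percent) in each library, with groups on the x axis; bars are means of 3 libraries, error bars are SD and points are libraries. The shares of Hk2, Pfkl, Pfkfb3 and Bnip3 are higher in both LPS groups than in untreated cells, and for Pfkfb3 they average 97.9% with BMS303141 and LPS, 96.2% with LPS and 20.6% in untreated cells.

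In the lower part of glycolysis, from aldolase to lactate dehydrogenase, LPS raised 4 of 8 genes and lowered 1. Eno1, which encodes enolase 1, was at 6.37, 5.78 and 5.92 log2 CPM with LPS and at 4.38, 4.49 and 4.56 in untreated cells (log2 difference 1.54, SE 0.15, adjusted p = 2.67e-06, limma). Tpi1, the triose phosphate isomerase, was at 5.64, 5.73 and 5.22 log2 CPM with LPS and at 4.80, 4.60 and 4.49 in untreated cells (0.90, SE 0.16, adjusted p = 0.000359, limma). Both rises separated the groups, as did that of Ldha, the muscle-type lactate dehydrogenase, with 5.90, 5.97 and 5.85 log2 CPM under LPS and 5.33, 5.29 and 4.91 in untreated cells (0.73, SE 0.14, adjusted p = 0.000656, limma). Pgk1, the first enzyme of the pathway to yield ATP, had 5.10, 6.16 and 5.91 log2 CPM with LPS and 5.19, 4.86 and 4.42 in untreated cells (0.90, SE 0.25, adjusted p = 0.00882, limma). Here the groups overlapped, since LPS replicate 1 lay below the highest untreated library.

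Pkm, which encodes pyruvate kinase and was the most abundant glycolytic gene in untreated cells, went the other way. It was at 8.45, 8.05 and 8.10 log2 CPM with LPS and at 8.92, 9.18 and 9.28 in untreated cells, a fall by 0.93 on the log2 scale (SE 0.13, adjusted p = 4.82e-05, limma). The 3′ reads do not separate the M1 and M2 splice forms of this gene. Aldoa, the main aldolase gene, was at 8.08, 7.79 and 7.88 log2 CPM with LPS and at 8.09, 8.33 and 8.14 in untreated cells; its difference of -0.27 missed the threshold (SE 0.11, adjusted p = 0.0562, limma) and passed without LPS replicate 1 (adjusted p = 0.00984, limma).

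Gapdh and Pgam1 stood at very low values for genes of this pathway. Gapdh, the glyceraldehyde 3-phosphate dehydrogenase gene often used as a reference in expression assays, was at 2.54, 1.48 and 1.52 log2 CPM with LPS and at -0.16, 1.74 and 1.06 in untreated cells, 5 to 17 value steps above the lowest value over all 9 libraries. In the annotation used here (GENCODE M21), 78.3% of the 50-base stretches in the last 300 bases of Gapdh transcripts also occurred in transcripts of other genes, 168 of which were pseudogenes. How reads with several matches were counted is not given in the sources used here, and the level of Gapdh is uncertain to that degree. The same share was 86.9% for Eno1 (mostly with the copy Eno1b and 6 pseudogenes), 45.9% for Ak4, 17.7 to 22.8% for Gpi1, Higd1a, Pkm, Ldha, Tpi1, Aldoa and Bnip3, 4.18% for G6pdx and 0 for the other 25 genes. Pgam1, the phosphoglycerate mutase gene, was among these 25, and lay at 1.75, 0.45 and 1.52 log2 CPM with LPS and at 0.30, 1.22 and 0.34 in untreated cells. Neither gene passed the test (log2 differences of 0.97 and 0.62, adjusted p = 0.143 and 0.284, limma). The table also listed Pgk1-rs7, a copy of Pgk1, at a mean of 5.14 log2 CPM with LPS and 4.28 in untreated cells, while Pgk1 was among the 25 genes with no shared stretch.

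Of the 7 pentose phosphate genes 5 fell with LPS, in both arms. Taldo1, Pgd, Tkt and Pgls ranked 1, 2, 4 and 5 of the 36 genes by level in untreated cells, and G6pdx, Rpe and Rpia ranked 16, 22 and 28. In the oxidative arm Pgls, the 6-phosphogluconolactonase gene, was at 7.59, 6.73 and 7.08 log2 CPM with LPS and at 7.93, 8.29 and 8.63 in untreated cells (log2 difference -1.15, SE 0.20, adjusted p = 0.000383, limma). G6pdx, the glucose 6-phosphate dehydrogenase gene that controls entry to the pathway, was at 4.07, 4.28 and 4.34 log2 CPM with LPS and at 4.84, 4.74 and 5.29 in untreated cells (-0.73, SE 0.20, adjusted p = 0.00829, limma). Groups did not overlap for either gene. Pgd, the phosphogluconate dehydrogenase gene, was at 8.69, 9.0 and 8.81 log2 CPM with LPS and at 9.34, 9.03 and 9.09 in untreated cells, a small fall by 0.32 (SE 0.12, adjusted p = 0.0404, limma) whose call ended in 9 of the alternative fits (adjusted p up to 0.213, limma).

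In the non-oxidative arm the abundant pair fell, while the call of the isomerase and the epimerase changed when 1 library was left out. Taldo1, the transaldolase gene (chromosome 7, 141392199 to 141402968, plus strand), was at 8.10, 8.47 and 8.21 log2 CPM with LPS and at 9.32, 9.16 and 9.36 in untreated cells, where it was the highest of the 36 genes (log2 difference -1.02, SE 0.13, adjusted p = 1.76e-05, limma). Tkt, the transketolase gene, was at 8.12, 7.63 and 7.90 log2 CPM with LPS and at 8.39, 8.98 and 9.07 in untreated cells (-0.93, SE 0.17, adjusted p = 0.000483, limma). Rpia and Rpe, which interconvert the pentose phosphates, lay between 2.63 and 4.50 log2 CPM in these 6 libraries with differences of 0.58 (95% interval 0.03 to 1.13) and 0.32 (95% interval -0.18 to 0.83), which did not pass. Without LPS replicate 1 both were called higher, Rpia by 0.77 (adjusted p = 0.0210, limma) and Rpe by 0.61 (adjusted p = 0.0171, limma). Summed over its 7 genes the pathway was at 1196 ± 29 CPM with LPS and at 2023 ± 151 CPM in untreated cells (SD, n = 3 each), and the 19 glycolytic genes at 1840.4 ± 98.7 CPM and 1399.8 ± 96.5 CPM in the same order of groups. The 8 of these from aldolase to lactate dehydrogenase went the other way as a sum. They were at 773.0 ± 71.5 CPM with LPS and at 970.8 ± 75.2 CPM in untreated cells. This sum holds Pkm, the most abundant of the 8 in untreated cells, whose mean was 8.20 log2 CPM with LPS and 9.13 without. Of the 8 genes 6 had a positive difference, beside 47.1% of tested genes.

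**Figure D3:**
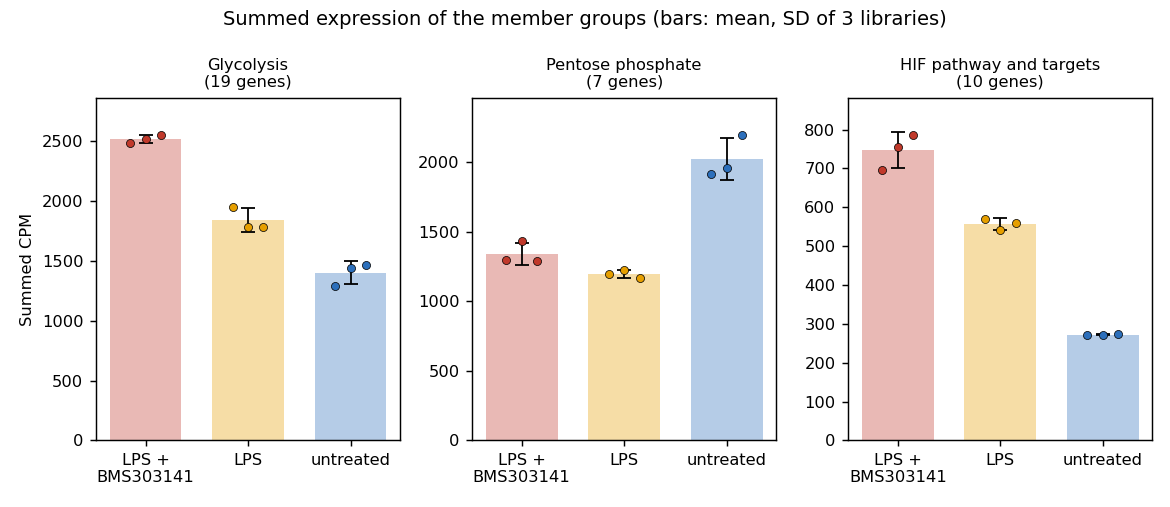
Summed CPM (y axis, from 0) of the 19 glycolytic, 7 pentose phosphate and 10 HIF group genes in each library, with groups on the x axis; bars are means of 3 libraries, error bars are SD and points are libraries. The glycolytic sum is highest with BMS303141 and LPS (2521 CPM on average), and the pentose phosphate sum is highest in untreated cells (2023 CPM).

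Hif1a itself rose with LPS, to 8.74, 8.41 and 8.54 log2 CPM against 6.90, 7.15 and 7.16 in untreated cells, a 2.81-fold difference without overlap (log2 difference 1.49, SE 0.12, adjusted p = 1.91e-07, limma). Egln1, which encodes the prolyl hydroxylase PHD2, was at 3.35, 4.65 and 4.61 log2 CPM with LPS and at 3.21, 3.15 and 3.37 in untreated cells. LPS replicate 1 lay among the untreated values; Egln1 was called higher with it (0.96, SE 0.29, adjusted p = 0.0149, limma), and its difference was 1.38 without that library. The call ended without untreated replicate 2, LPS replicate 2 or LPS replicate 3 (adjusted p up to 0.0731, limma). Egln3, which encodes PHD3, was at 0.77, 1.48 and 0.88 log2 CPM with LPS and at -0.79, -1.58 and 1.06 in untreated cells, where these values were 1 to 7 steps above the lowest (1.48, SE 0.61, adjusted p = 0.0600, limma).

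Among the HIF targets Ak4 and Bnip3 rose and Bnip3l fell. Ak4, a mitochondrial adenylate kinase, was at 3.43, 4.63 and 4.38 log2 CPM with LPS and at -2.85, -0.79 and -2.33 in untreated libraries, of which 2 were at the lowest value, so that the size of the difference (6.14, SE 0.47, adjusted p = 1.66e-07, limma) is imprecise. Bnip3, a mitochondrial receptor for autophagy, was at 4.07, 4.23 and 3.42 log2 CPM with LPS and at 2.48, 2.37 and 1.69 in untreated cells (1.73, SE 0.27, adjusted p = 0.000136, limma). Its relative Bnip3l (NIX), with the same function, was at 4.27, 4.50 and 4.55 log2 CPM with LPS and at 5.78, 5.28 and 5.31 in untreated cells (-1.01, SE 0.17, adjusted p = 0.000266, limma). Bnip3 made up 31.3 to 46.5% of the summed CPM of this pair with LPS and 7.56 to 11.8% in untreated cells. Ndrg1, P4ha1 (a subunit of collagen prolyl hydroxylase), Higd1a (a mitochondrial inner membrane protein) and Pdk1 (a kinase that shuts off pyruvate dehydrogenase) did not pass, with differences of 0.45, 0.43, 0.35 and -0.02. The interval of the Pdk1 difference was -0.40 to 0.37. Without LPS replicate 1 Ndrg1 and P4ha1 were called higher (differences of 0.64 each, adjusted p = 0.0165 and 0.00286, limma), and Egln3 was called higher without untreated replicate 3 (2.23, adjusted p = 0.00435, limma).

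With BMS303141 before LPS a few of these genes were higher than with LPS alone. Relative to LPS alone 4 of the 36 genes rose, namely Pfkfb3, Ndrg1, Ldha and Tpi1, against a background of 0.959% of tested genes called higher. In limma 0 of the 36 were called lower (1 at an unadjusted p under 0.05, Pfkp), beside 1.16% of tested genes. Most genes leaned the same way: 32 of 36 had a positive difference, beside 49.5% of all tested genes, and 19 had all 3 libraries with the inhibitor above all 3 with LPS alone, beside 10.1%. Only Pfkp lay below without overlap, beside 11.2%. The median log2 difference was 0.36 for the 36 genes and 0.00 over all tested genes.

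**Figure D4:**
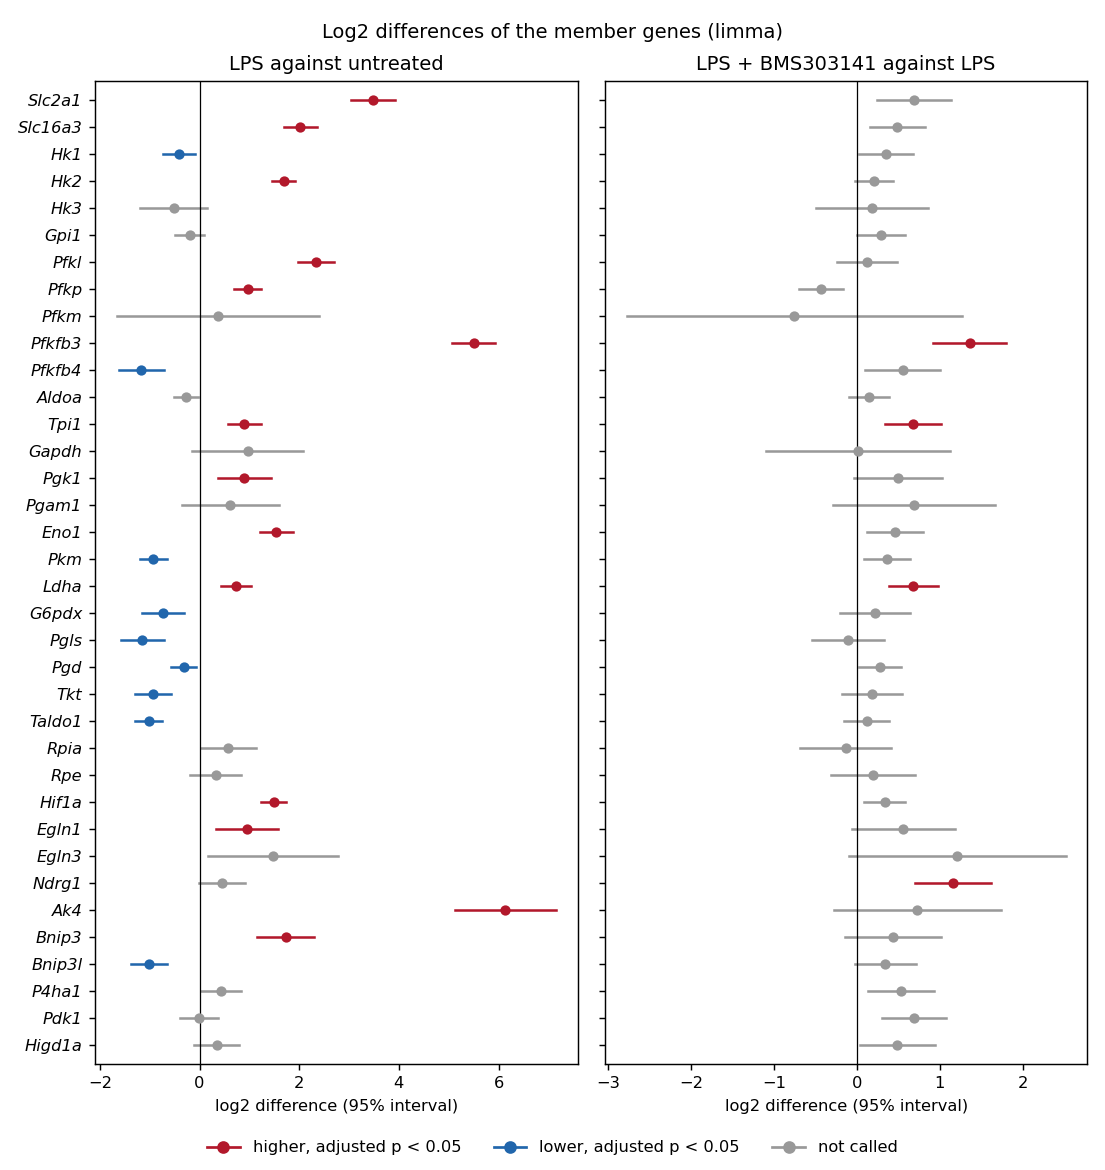
Log2 differences (x axes) with 95% intervals for the 36 genes (y axis), for LPS against untreated cells on the left and BMS303141 plus LPS against LPS on the right; red marks genes called higher and blue genes called lower. With LPS 14 genes are called higher and 9 lower, and with the inhibitor 4 are called higher; both panels use the same LPS libraries.

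Pfkfb3 showed the largest called difference with the inhibitor. It was at 8.69, 8.84 and 8.85 log2 CPM with BMS303141 and LPS and at 6.99, 7.64 and 7.66 with LPS alone, a 2.57-fold rise (log2 difference 1.36, 95% interval 0.92 to 1.80, adjusted p = 0.00377, limma). By level it ranked 3 of the 36 genes with the inhibitor. Without LPS replicate 1, the lowest of the LPS libraries, the difference was 1.14 (adjusted p = 0.00436, limma).

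Ndrg1, a stress-responsive gene induced by hypoxia, was at 5.23, 5.33 and 5.52 log2 CPM with BMS303141 and LPS and at 3.82, 4.17 and 4.61 with LPS alone (log2 difference 1.16, SE 0.21, adjusted p = 0.0126, limma). Ldha was at 6.55, 6.67 and 6.55 log2 CPM with the inhibitor and at 5.90, 5.97 and 5.85 with LPS alone (0.68, SE 0.14, adjusted p = 0.0190, limma). Tpi1 was at 6.19, 6.20 and 6.21 log2 CPM with the inhibitor and at 5.64, 5.73 and 5.22 with LPS alone (0.67, SE 0.16, adjusted p = 0.0410, limma). In all 3 genes the groups did not overlap. All 4 calls ended without a mean trend in the variance (adjusted p = 0.0520 to 0.119, limma), and those of Ndrg1, Ldha and Tpi1 also ended when any library with the inhibitor was left out (adjusted p = 0.0509 to 0.164, limma). The Tpi1 call ended as well with the replicate number as a block (adjusted p = 0.0559, limma), and those of Ldha and Tpi1 without LPS replicate 3 (adjusted p = 0.0762 and 0.138, limma). Both also ended with values centred on ribosomal protein genes, and that of Tpi1 without untreated replicate 2. In all, the Ldha call ended in 6 and the Tpi1 call in 8 of 18 alternative fits.

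Several genes came near the threshold without reaching it. Pdk1, which LPS had not moved detectably, was at 4.39, 4.75 and 4.86 log2 CPM with BMS303141 and LPS and at 3.97, 3.98 and 3.99 with LPS alone (log2 difference 0.69, 95% interval 0.31 to 1.07, adjusted p = 0.0669, limma). Slc2a1 was at 6.15, 6.11 and 5.70 log2 CPM with the inhibitor and at 4.99, 5.56 and 5.35 with LPS alone (0.69, 95% interval 0.25 to 1.13, adjusted p = 0.116, limma). Pfkp was at 6.05, 6.08 and 6.19 log2 CPM with the inhibitor and at 6.64, 6.41 and 6.57 with LPS alone (-0.43, 95% interval -0.70 to -0.16, adjusted p = 0.105, limma). The share of Pfkl in the phosphofructokinase CPM was accordingly 43.2 to 48.3% with the inhibitor, against 34.5 to 39.5% with LPS alone. For Slc16a3, P4ha1, Pkm, Eno1 and Hif1a the differences were 0.49, 0.53, 0.37, 0.46 and 0.34 with intervals above 0, and none passed after adjustment (adjusted p = 0.135 to 0.187, limma). Without LPS replicate 1 the number called higher was 7, with Slc16a3, Eno1 and Pkm added, beside 131 of 12184 tested genes.

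The pentose phosphate genes showed no called difference with the inhibitor in limma (0 of 7; 1 higher and 0 lower at an unadjusted p under 0.05). Pgls differed by -0.11 (95% interval -0.54 to 0.32), Tkt by 0.18 (-0.18 to 0.54), Taldo1 by 0.12 (-0.15 to 0.39) and G6pdx by 0.22 (-0.21 to 0.65). Rpia differed by -0.13 (-0.68 to 0.41) and Rpe by 0.20 (-0.31 to 0.70). Pgd was the gene that passed before adjustment, at 9.11, 9.25 and 8.97 log2 CPM with the inhibitor and 8.69, 9.0 and 8.81 with LPS alone (0.28, 95% interval 0.02 to 0.53, adjusted p = 0.296, limma). Their summed level was 1339.2 ± 78.1 CPM with BMS303141 and LPS and 1196 ± 29 CPM with LPS alone (SD, n = 3 each), while the 19 glycolytic genes were at 2521 ± 34 CPM and 1840.4 ± 98.7 CPM. Acly, the gene of the inhibited enzyme, was at 5.05, 5.24 and 4.91 log2 CPM with the inhibitor and at 5.08, 5.18 and 5.22 with LPS alone. Its difference of -0.09 did not pass (SE 0.14, adjusted p = 0.802, limma).

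Compared with untreated cells, macrophages given BMS303141 and LPS had 20 of the 36 genes higher and 7 lower, beside 21.5% and 25.6% of tested genes. There 24 of 36 differences were positive, beside 47.5% of tested genes, and 21 genes lay above and 7 below without overlap, beside 27.2% and 32.2%. This comparison shares its libraries with the other two. All 10 genes of the HIF group were called in it, 9 higher and 1 lower (Bnip3l). Of these, Ndrg1, P4ha1, Egln3, Higd1a and Pdk1 had not passed with LPS alone over all 9 libraries, although Ndrg1, P4ha1 and Egln3 did so when a library named above was left out. The direct comparison of both LPS groups, given above, is the test of a difference between them, and in the HIF group it called only Ndrg1. There 10 of 10 differences were positive and 9 genes lay above without overlap, beside 49.5% and 10.1% of tested genes.

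Hif1a was at 8.81, 8.91 and 8.98 log2 CPM with BMS303141 and LPS, above the untreated libraries by 1.83 (SE 0.12, adjusted p = 2.44e-08, limma). Egln1 was at 4.67, 4.72 and 4.91 log2 CPM, higher by 1.52 than in untreated cells (SE 0.29, adjusted p = 0.000748, limma). Egln3 was at 1.98, 2.02 and 2.76 log2 CPM with the inhibitor and LPS, against -0.79, -1.58 and 1.06 in untreated cells (2.69, adjusted p = 0.00253, limma). None of the 3 genes overlapped between these groups. Ak4 was at 4.81, 4.88 and 4.95 log2 CPM with the inhibitor and LPS, again against untreated libraries at or near the lowest value. Bnip3 was at 4.20, 4.42 and 4.40 log2 CPM (2.16 above untreated cells, adjusted p = 1.98e-05, limma) and Bnip3l at 4.79, 4.69 and 4.88 log2 CPM (-0.67, adjusted p = 0.00542, limma). This pair differed from untreated cells in opposite directions.

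Among the remaining HIF targets, Ndrg1 was at 4.03, 3.56 and 3.64 log2 CPM in untreated cells, below the values with BMS303141 and LPS given above (1.62, SE 0.21, adjusted p = 3.59e-05, limma). P4ha1 was at 6.10, 6.38 and 6.11 log2 CPM with the inhibitor and LPS, at 5.23, 5.97 and 5.78 with LPS and at 5.29, 5.37 and 5.04 in untreated cells (0.96 over untreated cells, SE 0.18, adjusted p = 0.000778, limma). Higd1a was at 4.07, 4.10 and 4.38 log2 CPM with the inhibitor and LPS, at 3.97, 3.41 and 3.71 with LPS and at 3.25, 3.20 and 3.60 in untreated cells. Only the libraries with the inhibitor lay wholly above the untreated ones in P4ha1 and Higd1a. Pdk1 was at 3.97, 3.85 and 4.16 log2 CPM in untreated cells (0.67, SE 0.18, adjusted p = 0.00715, limma).

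Of the 19 glycolytic genes 11 were higher and 2 lower than in untreated cells. Slc16a3 was at 8.69, 8.65 and 8.75 log2 CPM with BMS303141 and LPS (2.52 above untreated cells), and Slc2a1 differed by 4.16. Hk2 was at 8.15, 8.02 and 7.94 log2 CPM (1.90) and Pfkl at 5.94, 5.71 and 6.09 log2 CPM (2.46), neither overlapping with untreated cells. Eno1 was at 6.54, 6.46 and 6.44 log2 CPM with the inhibitor and LPS and Pgk1 at 6.16, 6.28 and 6.21, where Pgk1 no longer overlapped with the untreated libraries (1.39, SE 0.25, adjusted p = 0.000437, limma). Pgam1, not called with LPS, was at 2.16, 1.56 and 2.07 log2 CPM with the inhibitor and LPS (1.31, SE 0.45, adjusted p = 0.0300, limma), and this call ended in 4 of the alternative fits. Pkm, at 8.5, 8.54 and 8.66 log2 CPM, was lower than in untreated cells (-0.56, SE 0.13, adjusted p = 0.00266, limma). Pfkfb4, at 3.36, 3.21 and 3.24 log2 CPM, was lower too (-0.62, adjusted p = 0.0269, limma), in a call that ended in 5 of the alternative fits. Hk1, at 6.17, 6.06 and 5.91 log2 CPM, was not called (-0.06, 95% interval -0.38 to 0.27).

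Of the pentose phosphate genes 4 were lower than in untreated cells. Taldo1 was at 8.23, 8.59 and 8.32 log2 CPM with BMS303141 and LPS (-0.90, adjusted p = 5.71e-05, limma), and Tkt at 8.09, 7.97 and 8.14 log2 CPM (-0.75, adjusted p = 0.00246, limma). Pgls was at 6.99, 7.0 and 7.09 log2 CPM (-1.26, adjusted p = 0.000190, limma). All 3 lay below every untreated library. G6pdx, at 4.12, 4.63 and 4.61 log2 CPM, differed by -0.51 (adjusted p = 0.0496, limma), and the call ended in 11 of the alternative fits. Pgd was not called (-0.04, 95% interval -0.30 to 0.21). Rpe and Rpia went the other way without being called. Rpe differed by 0.52 (95% interval 0.01 to 1.03, adjusted p = 0.0854, limma) and lay above every untreated library. Rpia differed by 0.45 (95% interval -0.10 to 0.99, adjusted p = 0.167, limma). Rpe was called higher in 3 of the alternative fits and Rpia in 1.

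Other genes of the same pathways, 72 on a list written beside the set, were listed in 53 cases. With LPS 15 of these (28.3%) rose and 11 (20.8%) fell, beside 21.5% and 25.4% of all tested genes. Gpd2, a mitochondrial glycerol phosphate dehydrogenase, had the smallest p-value among rises (log2 difference 2.91, SE 0.10). Among falls the smallest belonged to Vegfa (-2.40, SE 0.22), the vascular growth factor gene, and Mxi1 (-2.04, SE 0.19), an antagonist of Myc, both of which are HIF targets in other cells. Of the 23 HIF pathway genes outside the set 9 rose and 3 fell. With the inhibitor 2 of the 53 (3.77%) rose and 1 (1.89%) fell relative to LPS, beside 0.959% and 1.16% of all tested genes. Hilpda, a HIF target that inhibits lipolysis at lipid droplets, was at 6.18, 6.13 and 5.92 log2 CPM with BMS303141 and LPS and at 4.49, 4.20 and 4.50 with LPS alone (1.68, SE 0.18, adjusted p = 0.000506, limma). Gys1, the glycogen synthase gene, differed by 0.94 (SE 0.14, adjusted p = 0.00319, limma), and Cited2, which encodes a protein that competes with HIF-1 for a coactivator, by -0.96 (SE 0.21, adjusted p = 0.0339, limma). Relative to untreated cells, the group with BMS303141 and LPS had 18 of the 53 (34.0%) higher and 12 (22.6%) lower, beside 21.5% and 25.6% of all tested genes. The smallest p-values were again those of Gpd2 (2.90) among rises, and of Cited2 (-2.55) and Mxi1 (-1.74) among falls.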

How the data were processed

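Messenger RNA was measured in 9 libraries of mouse macrophages. Libraries were QuantSeq 3′ libraries from 100 ng RNA with 16 PCR cycles, per the labels' protocols, which name no molecular identifiers. Per the submitters' processing notes, the build was GRCm38 (mm10) and the tools included featureCounts 1.5.1, STAR 2.5.2b, edgeR, limma and MultiQC. The sources used here do not give the annotation, the strand setting or how reads with several matches were counted. What the authors deposited are log2 scores, taken here from their range and sums as log2 CPM after quantile normalisation, which gives every library the same distribution. Depth was estimated from the steps between low values and is approximate; PCR copies are not independent molecules. Of 12204 identifiers 12185 matched a GENCODE M21 symbol. Genes at 0 or more log2 CPM in at least 3 libraries (12196, all 36 members among them) were fitted in limma 3.58.1 (R 4.3.3) with a mean per group, all 3 groups together, a mean trend and two-sided tests with Benjamini-Hochberg adjustment; SE is moderated. The steps were tried on simulated data for BMS303141 and LPS against LPS alone, with the same spread set for all genes and no outlying library. The outcome is not given here and is no measure of error rates in these data. All members are named; values by library are given for called members, promoters were chosen after their motifs were seen, and of the other pathway genes the 2 smallest p-values in each direction, with Acly; 1 gene that this rule names is not reported here. The members, lists and tests were chosen with earlier results of these data known.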

Additional observations from a re-analysis of the deposited data

How the results depend on the processing

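No called gene of the set changed sign under any alternative. A filter of 10 CPM in at least 3 libraries removed Pfkm, Gapdh, Pgam1 and Egln3 and left 32 genes of the set. The calls of Egln3 and Pgam1 over untreated cells were thus not tested there. With LPS against untreated cells, 20 of 23 calls held in every fit that tested the gene (exceptions Egln1, Hk1 and Pgd), the 2-fold minimum aside. With BMS303141 and LPS against LPS this was 0 of 4, and with BMS303141 and LPS against untreated cells 24 of 27 (exceptions G6pdx, Pfkfb4 and Pgam1). Conversely 7 genes not called with LPS, 8 with the inhibitor over LPS and 2 with the inhibitor and LPS over untreated cells passed in at least 1 fit. A 2-fold minimum left 9 of 14 higher and 4 of 9 lower with LPS, and 2 of 4 higher with the inhibitor over LPS. With the inhibitor and LPS over untreated cells it left 16 of 20 higher and 1 of 7 lower. For the inhibitor over LPS, the number higher was 2 with centring on ribosomal protein genes, 0 without a mean trend and 11 with weights per library. The weights also called 1 lower (Pfkp). Calls over all 12196 tested genes moved too, to 43 higher and 56 lower without a mean trend. With weights 407 were higher and 407 lower, beside 117 and 141 in the main fit. The cause was not tested. Leaving out 1 library gave 13 to 18 higher and 7 to 9 lower with LPS, 1 to 7 higher and 0 to 0 lower with the inhibitor over LPS, and 19 to 21 higher and 5 to 7 lower with the inhibitor and LPS over untreated cells. For the inhibitor over LPS, only 1 gene of the set was higher without inhibitor replicate 1, 2 or 3, 2 without LPS replicate 3 and 7 without LPS replicate 1. Over all tested genes, 32, 52 and 27 were then higher without inhibitor replicates 1, 2 and 3. The number was 75 without LPS replicate 3 and 131 without LPS replicate 1, beside 117 with all libraries. Centring on 79 ribosomal protein genes put the all-gene median at 0.04 with LPS (-0.06 as deposited) and at -0.08 (0.00) with the inhibitor over LPS, where 54 genes were then higher and 111 lower (117 and 141 as deposited). Deviations of same-numbered libraries from their group means correlated at r = -0.30 to 0.17 over 9 pairs (2 above 0.1). Those of differently numbered libraries correlated at -0.21 to 0.29 over 18 pairs (4 above 0.1). With 3 libraries a group this cannot decide whether the numbers pair samples. With the replicate number as a block, 14, 3 and 20 genes of the set were higher and 8, 0 and 7 lower in the 3 comparisons. Over all 12196 tested genes, 2530, 95 and 2537 were higher there and 3001, 113 and 3021 lower. The pseudocount alternative did not apply to log2 values. Depth limits Pfkm, Egln3, Gapdh, Pgam1 and the untreated values of Ak4, which rest on a few reads.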
